A study of Mus musculus with 24 samples.

Results

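The 9 genes described here are Gad1, Gad2, Slc32a1, Dlx1, Dlx2, Dlx5, Sox14, Lhx1 and Lhx5. They were chosen as genes of GABAergic neurons in the nuclei that lie around the relay nuclei of the thalamus. Gad1, Gad2 and Slc32a1 serve GABAergic neurons in general and cannot tell those inside the relay nuclei from those around them. The 9 genes were found by gene symbol and are read by 15 of the 45101 probe sets of the array, or 9 of the 18194 genes that could be tested. RNA came from wild-type C57BL/6 mice. In embBE pups both eyes had been cauterized in utero, and control pups were not enucleated. The dorsal lateral geniculate nucleus (dLGN, the visual relay nucleus) and the ventrobasal complex (VB, the somatosensory relay nucleus) were microdissected at postnatal days 0 and 4 (P0 and P4), and each sample pooled tissue from pups of 1 litter and 1 condition. The groups were dLGN at P4 (3 embBE and 3 control arrays), dLGN at P0 (4 embBE and 2 control arrays), VB at P4 (3 embBE and 3 control arrays) and VB at P0 (3 embBE and 3 control arrays), 24 arrays in all. Each label ends in a pair of numbers, such as 39_5, whose meaning is not stated. Nothing says that arrays of a group came from separate litters, so p-values measure only the spread between these arrays, which may be technical.

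Neurons that use GABA make it from glutamate with the glutamic acid decarboxylases encoded by Gad1 and Gad2, and load it into synaptic vesicles with the transporter encoded by Slc32a1. In rodents the relay nuclei hold few such cells early in life, while the reticular nucleus, the zona incerta and the ventral lateral geniculate nucleus beside them are rich in GABAergic neurons. Dlx1, Dlx2 and Dlx5 encode homeodomain factors of the prethalamus, from which the reticular nucleus and the zona incerta arise. Sox14 marks GABAergic neurons of the rostral thalamus and pretectum, and Lhx1 and Lhx5 encode LIM-homeodomain factors of the developing diencephalon. The deposited values are log2 signals, on which a difference of 1 is a doubling, and signals of different probe sets are not set against each other. In pooled tissue, fewer cells of a type and less RNA per cell cannot be told apart.

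The labelled tissue was looked at through 12 relay neuron genes, among them Slc17a6, Tcf7l2 and Gbx2. Their mean log2 signal lay between 9.56 and 10.5 in all 24 arrays. Such a mean cannot tell the dLGN from the VB or show tissue of neighbouring nuclei. Of these genes, Rorb was lower in the dLGN than in the VB at P0 (-1.71 ± 0.22, SE) and Lhx2 was higher (1.76 ± 0.22). The SD over all probe sets of an array lay between 2.17 and 2.42. Each gene was read from its brightest probe set on average, and the other probe sets of a member are given by their identifier. In 3 of the 9 members that probe set reached the median signal of the array or more, so most members were read at weak signal.

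In most members 1 pair of control arrays stood apart. The control arrays numbered 39_5 at P0 were the highest of the 6 P0 arrays in 7 of the 9 members, both in the dLGN and in the VB. Over all genes the 39_5 array was the highest of the 6 P0 arrays in 8.05% of genes in the dLGN and in 16.5% in the VB. Counted by probe set, it was the highest in 10 of 15 in the dLGN and in 12 of 15 in the VB. For the members, the main differences that rest on the P0 controls are therefore given with and without these arrays.

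**Figure D1:**
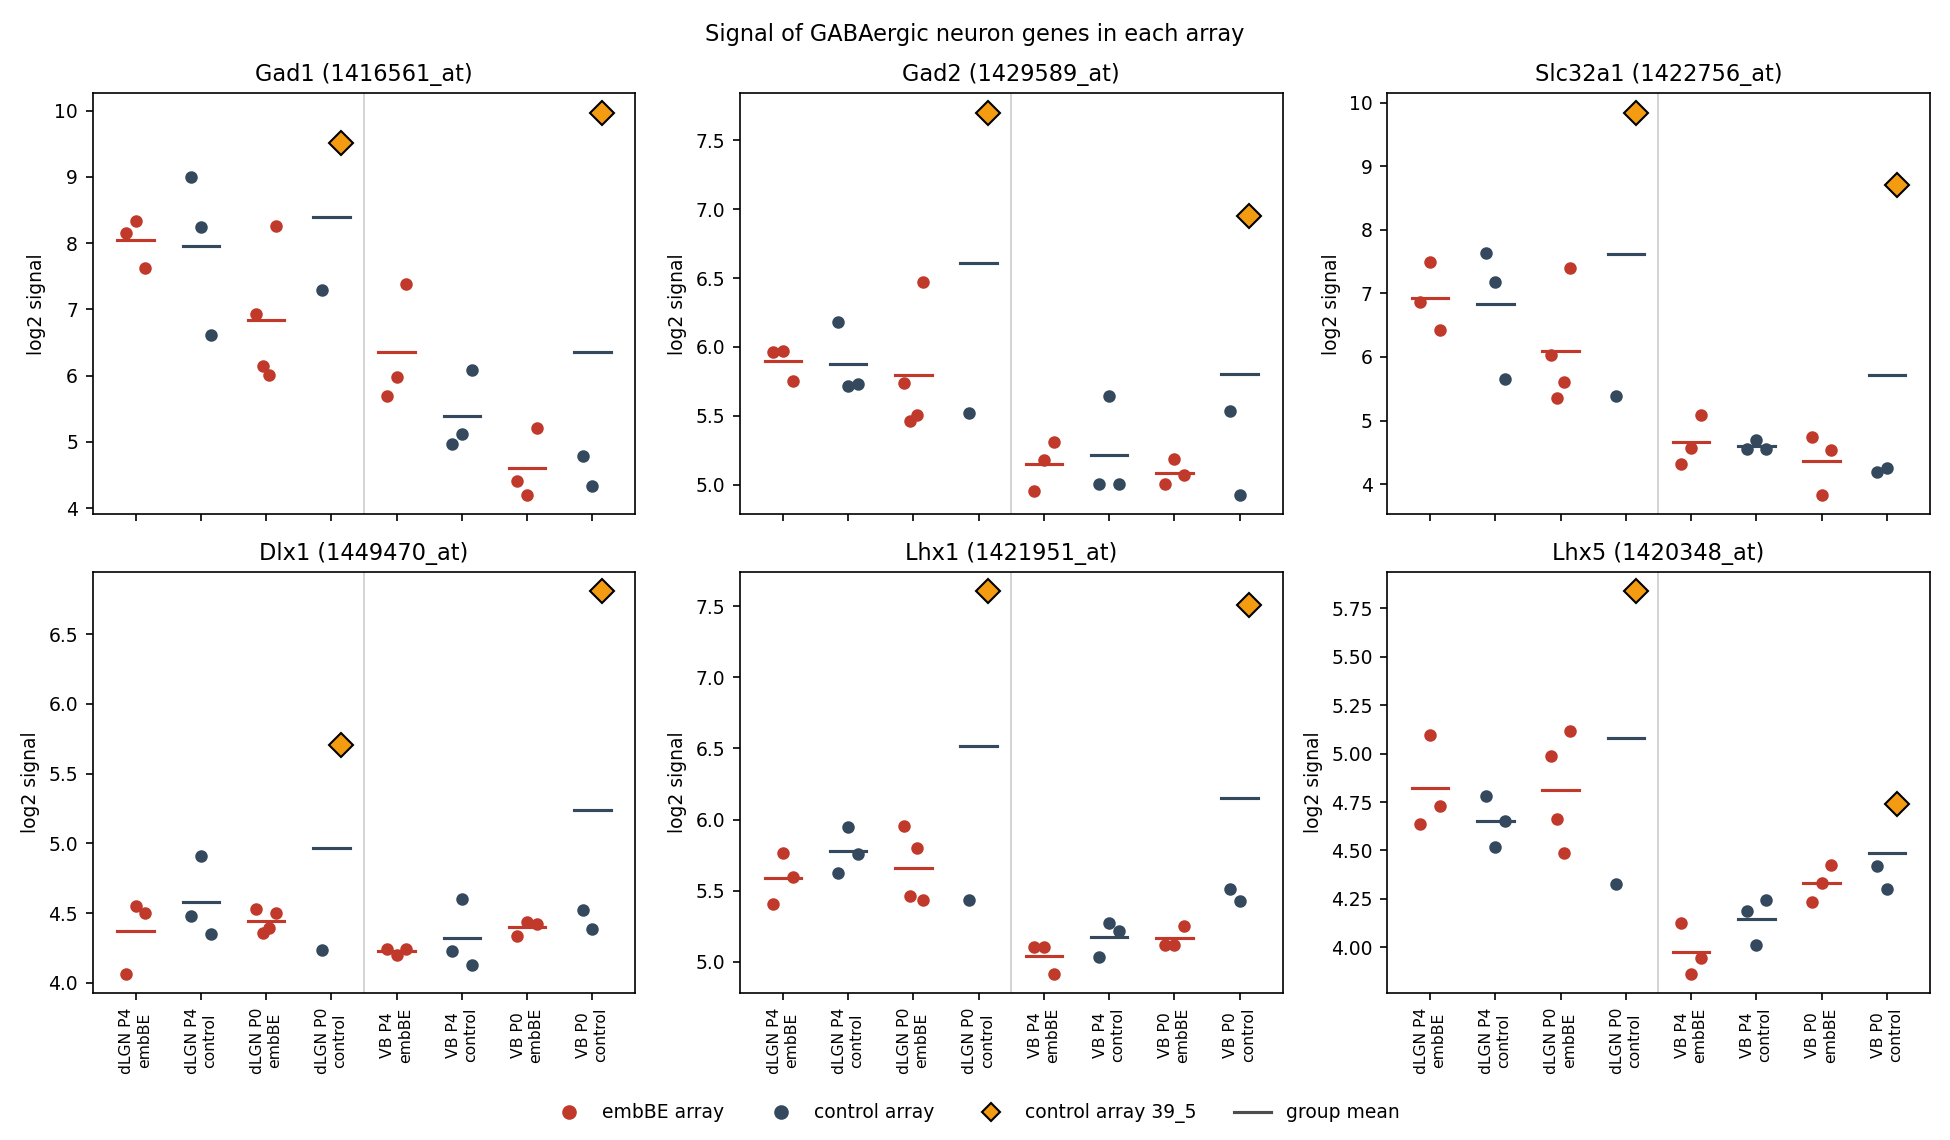
Log2 signal of 6 members (1 probe set each, for Slc32a1 that of largest SD) in each of the 24 arrays, by nucleus, day and condition; points are arrays, bars are group means and diamonds are the control arrays 39_5. For Gad1 the VB 39_5 array lies at 9.97 and the other 5 VB P0 arrays lie between 4.20 and 5.21.

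Gad1 (1416561_at), which encodes the decarboxylase GAD67, had the widest range of any member's main probe set. In the dLGN at P4 it was at 8.16, 8.33 and 7.63 in embBE arrays, against 8.996, 8.25 and 6.61 in control arrays. In the dLGN at P0 it was at 6.93, 6.15, 6.01 and 8.26 in embBE arrays, against 7.29 and 9.51 in control arrays. The groups overlapped at both ages, and the highest P0 value was that of control 39_5. In the VB at P4 Gad1 was at 5.69, 5.98 and 7.39 in embBE arrays, against 4.97, 5.12 and 6.09 in control arrays. In the VB at P0 it was at 4.41, 4.20 and 5.21 in embBE arrays, against 4.79, 4.33 and 9.97 in control arrays. The VB 39_5 array thus lay 4.76 above the highest of the other VB P0 arrays, and above every array of the dLGN. At P4 the arrays with first number 40 (40_3 and 40_1) were the highest of their group in the VB and the lowest of their group in the dLGN, in embBE and in control pups alike. The second Gad1 probe set (1416562_at) was nearly flat, with 5.39 in VB 39_5 and 4.78 to 5.18 in the other VB P0 arrays.

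Slc32a1, which encodes the vesicular GABA transporter, was read by 4 probe sets that did not behave alike. The brightest (1456457_at) stayed between 6.30 and 7.24 over all arrays, 1447573_at stayed between 4.96 and 5.88, and 1447574_s_at between 5.22 and 5.98. The fourth, 1422756_at, spanned 3.83 to 9.85. In the dLGN at P0 this probe set was at 6.04, 5.35, 5.603 and 7.41 in embBE arrays, against 5.39 and 9.85 in control arrays. In the VB at P0 it was at 4.74, 3.83 and 4.53 in embBE arrays, against 4.19, 4.26 and 8.71 in control arrays. In both nuclei the high control value was that of 39_5. The deviations of 1422756_at from its group means correlated with those of Gad1 over the 24 arrays (r = 0.91), and over the 22 arrays without 39_5 (r = 0.87). For 1456457_at the r was -0.09 and -0.31. Arrays share hybridization and scaling, so these r values are a description. Of the Slc32a1 probe sets, only 1422756_at moved with Gad1.

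Gad2 (1429589_at) encodes GAD65, the decarboxylase enriched at nerve terminals. In the dLGN at P0 it was at 5.74, 5.46, 5.51 and 6.47 in embBE arrays, against 5.52 and 7.70 in control arrays. At P0 in the VB it was at 5.01, 5.18 and 5.07 in embBE arrays, against 5.54, 4.93 and 6.95 in control arrays. The 39_5 arrays were the highest of all 12 arrays of their nucleus. The embBE array 39_4 of the dLGN was second at P0 for Gad2, for Gad1 and for Slc32a1 1422756_at.

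**Figure D2:**
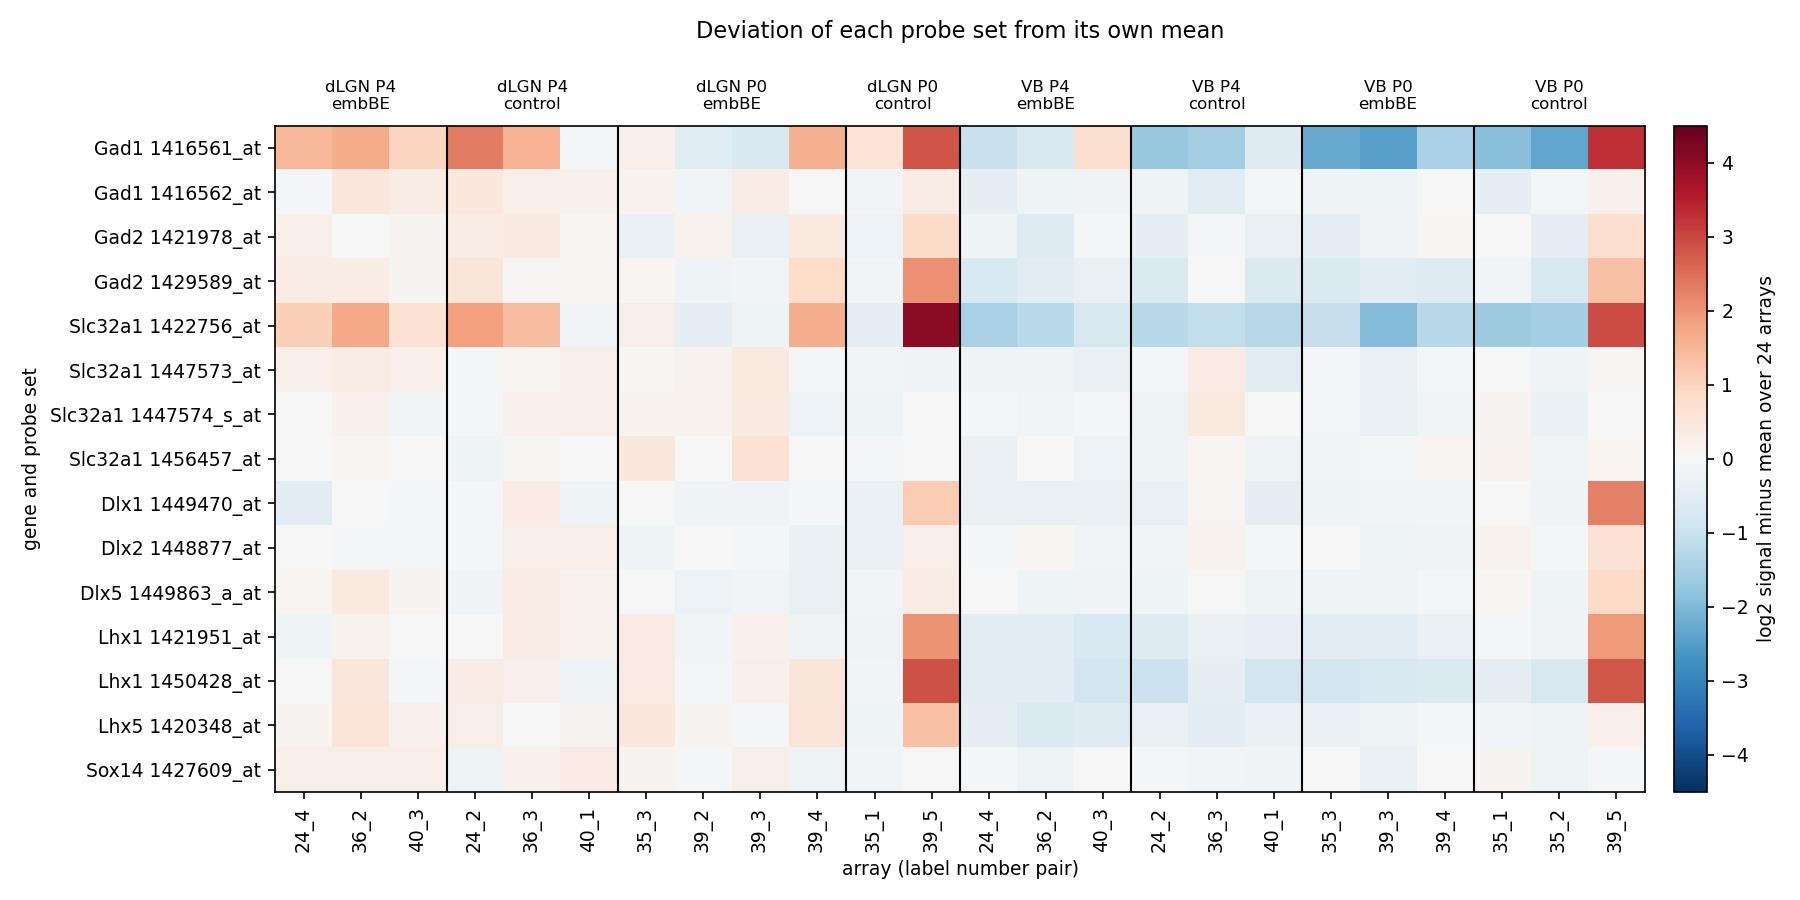
Log2 signal of the 15 probe sets of the 9 members minus each probe set's mean over the 24 arrays (colour), with arrays in columns by group and label numbers. Both 39_5 columns are reddest for Gad1 1416561_at, Slc32a1 1422756_at, Gad2 1429589_at, both Lhx1 probe sets and, in the VB, Dlx1, and the other Slc32a1 probe sets and Sox14 stay pale throughout.

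The promoters of Gad1, Slc32a1, Gad2 and Lhx1 are shown as examples of members with a probe set that was highest of the P0 arrays in 39_5 in both nuclei. The deviations of Gad2 from its group means correlated with those of Gad1 with r = 0.81 over 24 arrays and 0.61 without 39_5. For the Lhx1 probe sets r was 0.72 and, without 39_5, -0.19 (1421951_at), and 0.83 and 0.46 (1450428_at). They come from RefSeq (build GRCm38.p6) and run from 250 bases before to 50 bases after the start of the gene, 5′ to 3′ on its own strand. Capitals mark ATTA on either strand (ATTA or TAAT), the core that many homeodomain proteins can bind. The windows are chr2:70561879-70562178 (plus strand) for Gad1, chr2:158610508-158610807 (plus strand) for Slc32a1, chr2:22622077-22622376 (plus strand) for Gad2 and chr11:84525485-84525784 (minus strand) for Lhx1.
Gad1: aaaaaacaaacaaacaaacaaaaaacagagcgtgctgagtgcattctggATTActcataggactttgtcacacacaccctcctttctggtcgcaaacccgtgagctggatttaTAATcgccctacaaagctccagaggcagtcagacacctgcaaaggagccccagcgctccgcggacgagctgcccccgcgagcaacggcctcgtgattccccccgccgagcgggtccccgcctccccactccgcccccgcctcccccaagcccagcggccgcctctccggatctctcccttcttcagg
Slc32a1: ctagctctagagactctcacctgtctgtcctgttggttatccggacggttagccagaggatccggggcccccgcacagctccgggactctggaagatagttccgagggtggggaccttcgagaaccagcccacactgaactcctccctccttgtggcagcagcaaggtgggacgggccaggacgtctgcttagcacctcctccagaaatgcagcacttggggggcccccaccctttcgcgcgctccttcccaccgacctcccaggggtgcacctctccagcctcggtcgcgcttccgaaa
Gad2: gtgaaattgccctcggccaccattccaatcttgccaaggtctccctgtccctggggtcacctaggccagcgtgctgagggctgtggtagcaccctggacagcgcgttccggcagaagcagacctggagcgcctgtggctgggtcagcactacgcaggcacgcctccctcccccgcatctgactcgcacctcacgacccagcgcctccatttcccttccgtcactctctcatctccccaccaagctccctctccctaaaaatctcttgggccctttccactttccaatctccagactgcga
Lhx1: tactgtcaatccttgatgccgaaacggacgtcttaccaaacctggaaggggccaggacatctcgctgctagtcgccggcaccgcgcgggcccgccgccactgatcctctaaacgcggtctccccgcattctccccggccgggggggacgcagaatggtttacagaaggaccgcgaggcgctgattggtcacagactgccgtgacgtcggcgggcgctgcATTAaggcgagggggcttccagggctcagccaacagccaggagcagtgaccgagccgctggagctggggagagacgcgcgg
The table held promoters of 7 of the 9 members, all but Dlx5 and Lhx5. ATTA on either strand occurred in 2 of the 7 (2 matches in Gad1 and 1 in Lhx1), and in 58.0% of the 32851 promoters of the table. The longer TAATTA, which contains the ATTA core and is its own reverse complement, occurred in 0 of the 7 and in 5.29% of all promoters. The promoters of the 7 members held 60.0% to 69.3% G and C, and the median of all promoters was 52.7%. A match is a description of the sequence and not a binding site.

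At P0 the Dlx genes were highest in the 39_5 arrays, by more in the VB than in the dLGN. Dlx1 (1449470_at) was at 4.53, 4.36, 4.39 and 4.504 in dLGN P0 embBE arrays, against 4.23 and 5.70 in control arrays. At P0 in the VB it was at 4.34, 4.44 and 4.42 in embBE arrays, against 4.53, 4.39 and 6.81 in control arrays. Without 39_5, Dlx1 lay between 4.06 and 4.91 in the dLGN and between 4.13 and 4.60 in the VB, at either age. Dlx5 was at 5.42 in dLGN 39_5 and 4.77 to 5.12 in the other dLGN P0 arrays, and at P4 the dLGN embBE array 36_2 was higher, at 5.54. It was at 6.00 in VB 39_5 and 4.92 to 5.17 in the other VB P0 arrays. Dlx2, a neighbour of Dlx1 on chromosome 2, was at 5.07 in dLGN 39_5 and 5.41 in VB 39_5, which was 0.32 and 0.49 above the highest other P0 array of the nucleus.

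Lhx1 (1421951_at) was at 5.96, 5.46, 5.80 and 5.44 in dLGN P0 embBE arrays, against 5.43 and 7.604 in control arrays. At P0 in the VB it was at 5.12, 5.12 and 5.25 in embBE arrays, against 5.51, 5.42 and 7.51 in control arrays. All 3 VB embBE arrays lay below all 3 control arrays, and the gap without 39_5 was small. The other Lhx1 probe set (1450428_at) followed the same arrays, with 7.88 in dLGN 39_5 and 7.82 in VB 39_5, and 4.905 to 5.595 and 4.23 to 4.58 in the other P0 arrays of the dLGN and of the VB. Lhx5 was at 5.84 in dLGN 39_5 and 4.33 to 5.12 in the other dLGN P0 arrays, and at 4.74 in VB 39_5 and 4.23 to 4.42 in the other VB P0 arrays. Unlike Dlx1, Lhx5 stood further from its neighbours in the dLGN (0.72) than in the VB (0.32).

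Sox14 (1427609_at) lay between 6.09 and 6.78 in all 24 arrays. The 39_5 arrays were within the range of the others, at 6.44 in the dLGN and 6.35 in the VB. With a single flat probe set, its range says nothing of whether Sox14 was expressed. At P4 control 36_3 was the highest VB array in 6 of the 9 members. The widest margins were those of Dlx1 (4.60, with the next array at 4.24) and Gad2 (5.65, with the next at 5.31). The share of all genes highest in 36_3 is not given. Its SD over all probe sets was 2.26, and the other VB P4 arrays had 2.38 to 2.42. What a narrower spread of signals does to weak probe sets was not tested.

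Other genes that stood apart in the 39_5 arrays were not the same in both nuclei. In the dLGN 39_5 array 9 genes of 18194 (0.05%) lay at least 1 above the other 11 dLGN arrays, 2 of them members (Lhx1 and Gad2). The other 7 were Nkx2-2, Sst, Sema3c, Esrrg, Lmo3, Tal1 and Tent5a. In the VB 39_5 array 12 genes (0.066%) did so, 4 of them members (Gad1, Dlx1, Lhx1 and Gad2). The other 8 were Cartpt, Sst, Meis2, Grp, Syt17, Islr2, Pcdh8 and Isl1. Sst, the precursor of somatostatin, was the 1 gene that is no member to appear in both nuclei. These genes were named from this count, after their values were seen.

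Of 6 measured factors of the rostral thalamus, pretectum and midbrain, 4 were highest of the P0 arrays in dLGN 39_5 and 3 in VB 39_5. Nkx2-2 was at 9.87 in dLGN 39_5 and 6.58 to 7.76 in the other dLGN P0 arrays, and at 7.07 and 6.47 to 6.81 in the VB. Tal1 was at 9.28 in dLGN 39_5 and 6.46 to 8.15 in the other dLGN P0 arrays, and at 5.94 and 5.46 to 5.91 in the VB. Of 8 measured prethalamic factors, 1 was highest in dLGN 39_5 and 6 in VB 39_5. The 1 was Esrrg, at 8.87 in dLGN 39_5 and 6.93 to 7.53 in the other dLGN P0 arrays, and it was also highest in VB 39_5, at 7.41 against 6.46 to 7.08. Meis2 was at 6.16 in dLGN 39_5, within the 6.08 to 7.17 of the other dLGN P0 arrays, and at 8.54 in VB 39_5, against 5.24 to 5.90. Among P0 arrays of the VB Isl1 was high in 39_5, at 7.82 against 4.96 to 5.66. The VB embBE array 40_3 at P4, the highest VB P4 array for Gad1 (7.39), was also the highest of them for Isl1 (6.81, against 5.11 to 5.44), for Meis2 (6.86, against 5.72 to 6.23) and for Npy (6.74, against 5.40 to 6.00).

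In dLGN 39_5 the relay list had a mean of 9.76, against 9.81 to 10.5 in the other dLGN P0 arrays. In VB 39_5 it had a mean of 9.65, against 10.1 to 10.3 in the other VB P0 arrays. At P4 the mean was 9.56 to 9.915 in dLGN arrays and 9.66 to 9.90 in VB arrays. Gbx2, a homeodomain factor of developing thalamic neurons, was at 5.18 in dLGN 39_5 and 6.51 to 9.05 in the other dLGN P0 arrays, and at 7.05 and 7.48 to 8.40 in the VB. At P4 Gbx2 was at 4.57 to 6.67 in the dLGN and 6.205 to 7.40 in the VB. Lower at P4 than at P0 (limma adjusted p under 0.05) were 2 of the 12 relay genes in the dLGN and 5 in the VB. Of all genes 2.55% were lower in the dLGN and 5.75% in the VB. Of the 12 relay genes, 1 was highest of the P0 arrays in dLGN 39_5 and 0 in VB 39_5. In dLGN 39_5 the same held of 0 of 4 striatal, 0 of 4 cortical, 0 of 7 hypothalamic, 1 of 6 habenular, 1 of 6 astrocyte, 1 of 5 oligodendrocyte, 0 of 5 microglial, 0 of 5 vessel and 0 of 5 choroid plexus genes. In VB 39_5 it held of 0 of 4 striatal, 0 of 4 cortical, 1 of 7 hypothalamic, 1 of 6 habenular, 3 of 6 astrocyte, 1 of 5 oligodendrocyte, 3 of 5 microglial, 0 of 5 vessel and 0 of 5 choroid plexus genes. The part that tissue of neighbouring nuclei in the dissected pieces had in these values was not tested. The SD of the 39_5 arrays over all probe sets was 2.32 in the dLGN and 2.33 in the VB, inside the range of the other P0 arrays. The signal of the 3′ actin probe set minus that of the 5′ one, a measure of RNA quality, was 4.05 in dLGN 39_5. It was 3.065 to 4.27 in the other dLGN P0 arrays. In VB 39_5 it was 2.98, against 4.29 in control 35_1 and 2.195 to 2.55 in the other VB P0 arrays. The part of RNA quality in the 39_5 values was not tested.

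**Figure D3:**
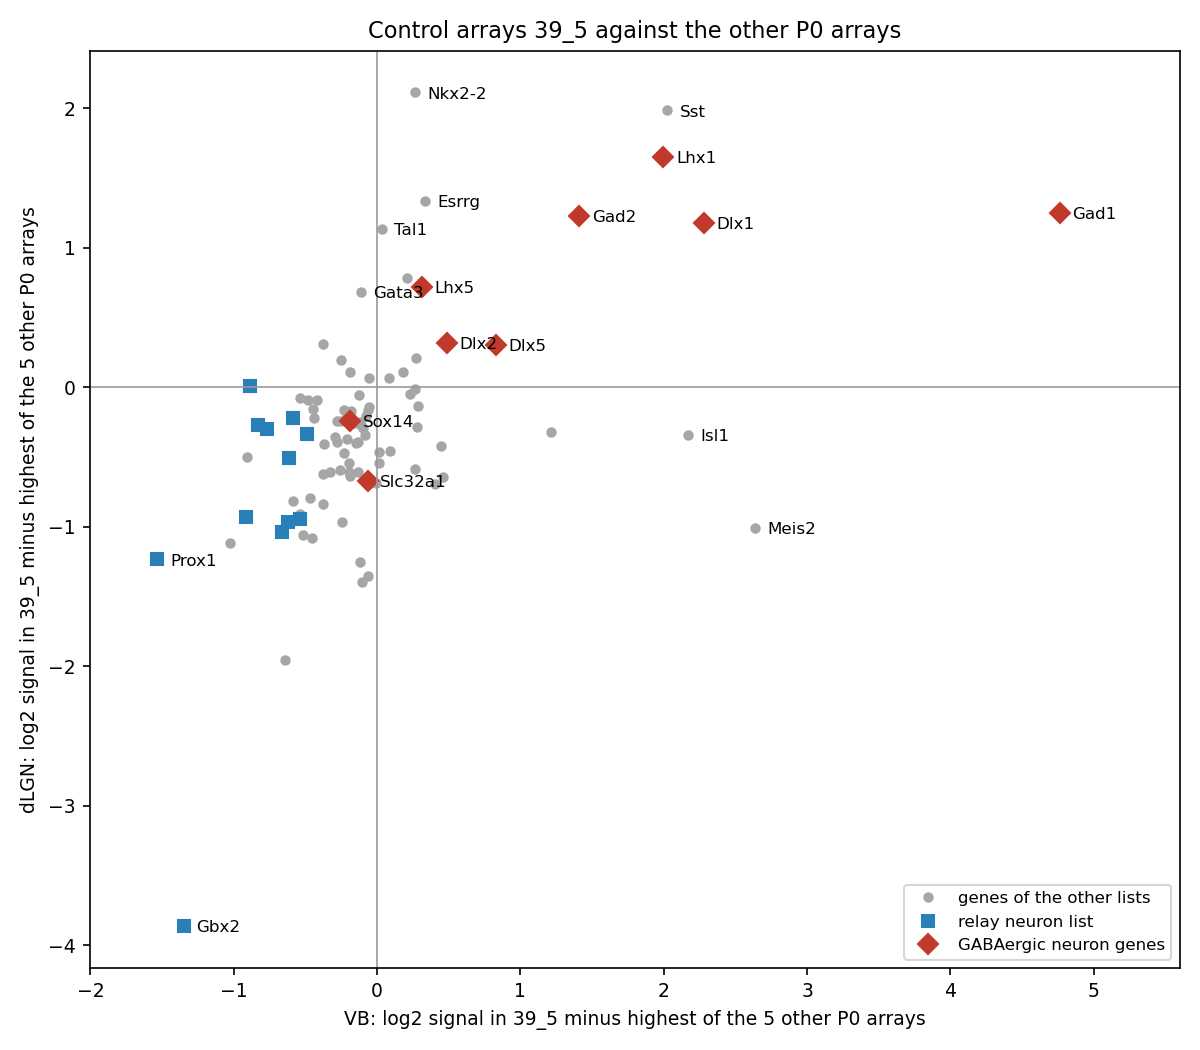
For each gene of the marker lists, the log2 signal in control array 39_5 minus the highest of the 5 other P0 arrays of the same nucleus, in the dLGN (y axis) and in the VB (x axis). The 7 members other than Slc32a1 and Sox14 lie above 0 on both axes, as does Sst, whereas Meis2 and Isl1 lie above 0 on the VB axis only and Gbx2 lies at -3.86 on the dLGN axis.

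The comparison of embBE with control pups asked how the loss of the eyes changed these genes in the deprived dLGN and in the VB. Calls followed the criterion of the study, at least 1.5-fold with an unadjusted p under 0.05 in limma, and Benjamini-Hochberg adjusted p-values over 18194 genes are given beside it. In the VB at P0 Lhx1 was called and the 8 other members were not. Lhx1 averaged 5.16 ± 0.078 in embBE arrays and 6.15 ± 1.18 in control arrays (SD, n = 3 each), a difference of -0.99 ± 0.40 (SE, limma adjusted p = 0.679). Of all genes 0.726% were called, and 7.55% had all embBE arrays below all control arrays, as Lhx1 did. Gad1 differed by -1.76 ± 1.10, Dlx1 by -0.84 ± 0.46 and Gad2 by -0.72 ± 0.37 (SE), each with a 95% interval that included 0. Dlx2 differed by -0.36 ± 0.16 (SE, limma unadjusted p = 0.0437), under the fold of 1.5. The other Lhx1 probe set differed by -1.27 ± 0.64 and Slc32a1 1422756_at by -1.35 ± 0.87, and neither was called. All 9 members had a difference below 0, with a median of -0.39, and over all genes 44.4% lay above 0 with a median of -0.025.

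Without the 39_5 arrays these differences shrank. Lhx1 then differed by -0.30 ± 0.12 (SE, limma adjusted p = 0.72), under the fold of 1.5. Gad1 differed by 0.043 ± 0.48, Dlx1 by -0.058 ± 0.14 and Gad2 by -0.14 ± 0.22. The median of the 9 members was -0.065, and 0 were called. The Lhx1 call was also lost without embBE array 35_3 or 39_3, and in these fits 0 members were called. In the other direction, 3 members were called without control 35_1 and 5 without control 35_2, which left 39_5 as 1 of 2 control arrays. The count in this comparison was thus set by single arrays. The share of all genes called in these fits is not given. Whether the members moved more than all genes was thus not shown.

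In the dLGN at P0 none of the 9 members was called, and 0.445% of all genes were. Gad1 averaged 6.84 ± 1.03 in 4 embBE arrays and 8.40 ± 1.57 in 2 control arrays (SD), a difference with a 95% interval of -3.20 to 0.08. Lhx1 differed by -0.86 ± 0.42, Gad2 by -0.82 ± 0.46, Dlx1 by -0.52 ± 0.31 and Slc32a1 1422756_at by -1.52 ± 0.96 (SE). The median over the 9 members was -0.28, and 0.028 over all genes. Without 39_5, which left 1 control array assumed to vary like the other groups, Gad1 differed by -0.45 ± 0.87. Gad2 then differed by 0.27 ± 0.34, Lhx1 by 0.23 ± 0.24 and Lhx5 by 0.49 ± 0.26, and the median was 0.21. Without control 35_1, which left 39_5 as the only control array, the median was -1.02. Without embBE 39_4 2 members were called, and the share of all genes called in that fit is not given. The sign of the median and the count thus changed with 1 array.

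**Figure D4:**
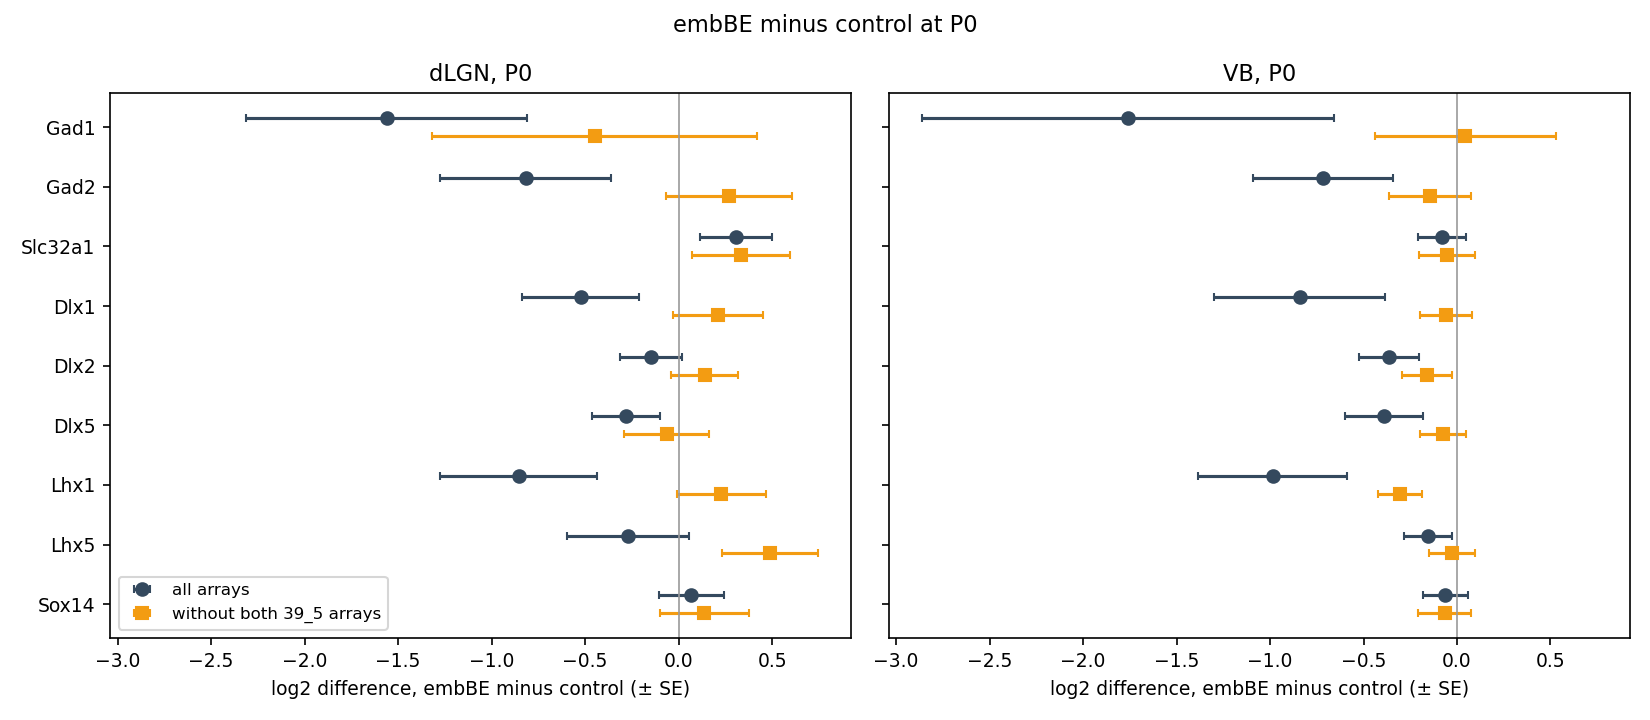
Log2 difference of embBE minus control at P0 for each member (main probe set), with SE, in the dLGN (left) and the VB (right), with all arrays and without both 39_5 arrays. In the VB Gad1 moves to 0.043 and Dlx1 to -0.058 when 39_5 is left out, and Slc32a1 and Sox14 lie near 0 in the VB either way.

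At P4 0 members were called in either nucleus, against 0.198% of all genes in the dLGN and 0.159% in the VB. In the dLGN Gad1 averaged 8.04 ± 0.37 in embBE arrays and 7.95 ± 1.22 in control arrays (SD, n = 3 each), and the interval of the difference ran from -1.46 to 1.64. The other 8 members differed by -0.23 to 0.17 in the dLGN, with a median over the 9 of 0.064. In the VB Gad1 averaged 6.35 ± 0.91 in embBE arrays and 5.39 ± 0.61 in control arrays, a difference of 0.96 ± 1.10 (SE). With both 39_5 arrays out of the fit the SE of this difference fell to 0.43 and Gad1 was called (limma unadjusted p = 0.0478, limma adjusted p = 0.763). The share of all genes called in that fit is not given. The other members differed by -0.17 to 0.00 in the VB. No gene passed an adjusted p of 0.05 in any of the 4 comparisons of embBE with control, where 236 to 1219 genes had an unadjusted p under 0.05 in limma.

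Among the related genes called at the study's threshold, Pnoc, the precursor of nociceptin, was lower in embBE dLGN at P4 (-1.05 ± 0.38, SE). Prox1 was higher (0.67 ± 0.26) and Fabp7 and Aldh1l1, both of astrocytes, were lower (-0.76 ± 0.27 and -0.75 ± 0.30) in embBE dLGN at P0, and Tac1 was lower in embBE VB at P4 (-0.72 ± 0.19). None of the 6 measured genes of GABA handling (transport, breakdown and reception) was called in any comparison of embBE with control. Nor was any GABAergic transcription factor of the marker lists, which leave out the members. The member Lhx1 was called in the VB at P0.

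The comparison of the dLGN with the VB asked how the members differed between nuclei, over embBE and control arrays. At P4 all 9 members were higher on average in the dLGN than in the VB, with a median difference of 0.30, and 3 of them, Gad1, Lhx5 and Sox14, had a limma adjusted p under 0.05. Over all genes 58.5% lay above 0 and 19.3% passed this threshold in either direction. Gad1 averaged 7.996 ± 0.81 in the dLGN and 5.87 ± 0.87 in the VB (SD, n = 6 each), a difference of 2.12 ± 0.73 (SE, limma adjusted p = 0.0474). Lhx5 averaged 4.74 ± 0.20 in the dLGN and 4.06 ± 0.15 in the VB, a difference of 0.67 ± 0.18 (SE, limma adjusted p = 0.0144). Sox14 averaged 6.61 ± 0.21 in the dLGN and 6.31 ± 0.079 in the VB, a difference of 0.30 ± 0.10 (SE, limma adjusted p = 0.0446). Gad2 (0.70 ± 0.32) and Lhx1 (0.58 ± 0.31) missed the threshold.

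The groups were separate for Gad2, Lhx1 and Lhx5, in which every dLGN array at P4 lay above every VB array, and 3.62% of all genes did so. Slc32a1 1422756_at, in a fit over every probe set, was 2.25 ± 0.70 higher in the dLGN (SE, limma adjusted p = 0.038), and its arrays lay between 5.66 and 7.64 in the dLGN and between 4.32 and 5.08 in the VB. In that fit Gad1 1416562_at was also higher in the dLGN (0.53 ± 0.12), whereas Gad1 1416561_at (limma adjusted p = 0.0533) and Sox14 (limma adjusted p = 0.0514) missed the threshold. With the probe set of largest variance standing for each gene, Gad1 missed it as well (limma adjusted p = 0.0501). The brightest Slc32a1 probe set differed by 0.15 ± 0.11. The call of Lhx5 held with each of 12 arrays left out in turn, that of Sox14 in 2 of 12 and that of Gad1 in 1 of 12, although the Gad1 difference stayed between 1.86 and 2.45. With both 39_5 arrays out of the fit Gad1, Gad2, Lhx1 and Lhx5 were called and Sox14 was not. The share of all genes called without the 39_5 arrays is not given. A measure of RNA quality moved with the nucleus at P4. The signal of the 3′ actin probe set minus that of the 5′ one was 3.34 to 4.13 in 5 dLGN arrays and 2.21 in control 24_2, against 1.95 to 2.30 in 5 VB arrays and 3.14 in control 36_3. The SD over probe sets was 2.19 to 2.41 in the dLGN and 2.26 to 2.42 in the VB. The part of RNA quality in these differences was not tested.

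At P0 0 members passed the adjusted threshold, and 7.66% of all genes did. Gad1 was 2.14 ± 0.75 higher in the dLGN (SE, limma adjusted p = 0.0921), Gad2 0.76 ± 0.32 and Lhx5 0.54 ± 0.18. Without both 39_5 arrays Gad1 was 2.48 ± 0.53 higher in the dLGN (SE, limma adjusted p = 0.0132) and the other 8 members did not pass. Without VB 39_5 alone 2 members passed, and the share of all genes that passed in that fit is not given. Slc32a1 1422756_at was 1.82 ± 0.72 higher (limma adjusted p = 0.176). Dlx1, Dlx2 and Dlx5 differed by -0.11, -0.12 and -0.10. The actin measure of RNA quality was 3.065 to 4.27 in the dLGN at P0. In the VB it was 4.29 in control 35_1 and 2.195 to 2.98 in the other arrays. Its part in these differences was not tested.

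Set side by side by label number, Gad1 was higher in the dLGN than in the VB in 6 of 6 pairs at P4, by 0.24 to 4.02. The smallest differences were those of 40_3 (0.24) and 40_1 (0.52), and the other 4 lay between 2.35 and 4.02. At P0 it was higher in 4 of 5 pairs, by 1.81 to 3.06, and in pair 39_5 the difference was -0.46. Slc32a1 1422756_at was higher in the dLGN in 6 of 6 pairs at P4 (1.11 to 3.09) and in 5 of 5 at P0 (1.14 to 2.87), pair 39_5 included. Dlx1 was higher in 5 of 6 pairs at P4 (-0.18 to 0.35) and in 2 of 5 at P0 (-1.10 to 0.19). Whether arrays of 1 number pair came from the same pups is not stated.

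**Figure D5:**
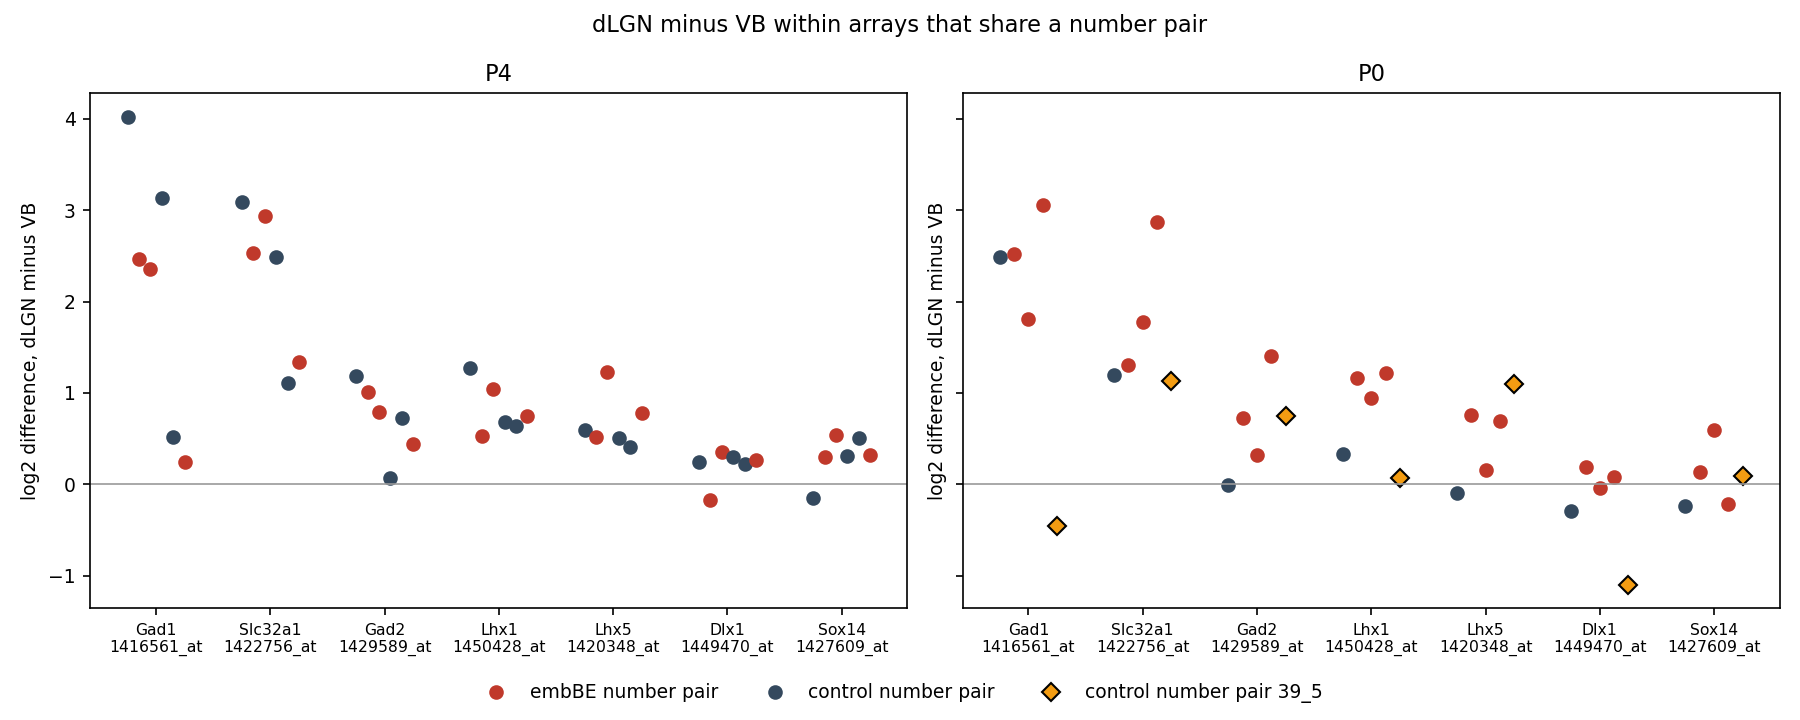
Log2 signal in the dLGN minus that in the VB for arrays that share a number pair, at P4 (left, 6 pairs) and P0 (right, 5 pairs), for 7 members by probe set. Gad1 and Slc32a1 1422756_at lie above 0 in all pairs at P4, and at P0 the 39_5 pair lies at -0.46 for Gad1 and 1.14 for Slc32a1.

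Related genes called between nuclei were Tal1, Gata3 and Penk, the precursor of enkephalins. At P4 they were higher in the dLGN by 1.61 ± 0.34, 0.86 ± 0.22 and 0.82 ± 0.22 (SE). At P0 they were higher by 1.72 ± 0.35, 0.93 ± 0.23 and 0.999 ± 0.23. Meis2 (1.57 ± 0.40) and Npy (1.12 ± 0.35) were higher in the dLGN at P4, and Esrrg (0.77 ± 0.23) at P0. Slc6a11, a GABA transporter of astrocytes, was lower in the dLGN at both ages (-0.90 ± 0.10 at P4 and -0.35 ± 0.11 at P0), and Aldh5a1, an enzyme of GABA breakdown, at P4 (-0.38 ± 0.13). Genes of the striatal list were higher in the dLGN too, 3 of 4 at P4 and 2 of 4 at P0, with Drd1, a dopamine receptor, at 0.99 ± 0.21 and 1.06 ± 0.22. In the same comparisons genes of the oligodendrocyte lineage were lower in the dLGN, 3 of 5 at each age. Of 6 astrocyte genes, Gfap was higher in the dLGN at P4 (0.57 ± 0.16), and at P0 Aqp4 was higher (2.76 ± 0.27) and Gja1 (-0.72 ± 0.14) and Slc1a3 (-0.44 ± 0.13) were lower. The part of other cell types in these results was not tested.

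The comparison of P4 with P0 asked how the members changed with age. These differences average the embBE and the control group means of each age. In the dLGN 0 members passed the adjusted threshold, and 4.72% of all genes did. There Gad1 differed by 0.38 ± 0.52, Lhx1 by -0.41 ± 0.29 and Gad2 by -0.32 ± 0.32 (SE). Without 39_5 these differences were 0.93 ± 0.54 for Gad1, 0.13 ± 0.15 for Lhx1 and 0.23 ± 0.21 for Gad2, so that Lhx1 and Gad2 changed sign, and none was called. In the VB Lhx5 alone passed, with 4.06 ± 0.15 at P4 and 4.41 ± 0.18 at P0 (SD, n = 6 each) and a difference of -0.34 ± 0.091 (SE, limma adjusted p = 0.0265), and 13.4% of all genes passed. Without 39_5 the Lhx5 difference was -0.28 ± 0.083 (limma adjusted p = 0.0513), and Gad1 was 1.29 ± 0.32 higher at P4 (SE, limma adjusted p = 0.0264), and with it 0.39 ± 0.78. The Lhx5 call was also lost without P4 embBE 36_2 or 40_3 and without P0 embBE 39_3 or 39_4. In the dLGN 1 member was called without P0 control 35_1.

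Of the 6 measured genes of GABA handling, 2 were higher at P4 than at P0 in the VB, and 1 was higher and 1 lower in the dLGN. In the VB Slc6a11 was 0.98 ± 0.11 and Abat, the GABA transaminase, 0.97 ± 0.29 higher at P4, as were Pnoc (1.80 ± 0.21) and Nkx2-2 (0.91 ± 0.10). In the dLGN Slc6a11 was 0.43 ± 0.10 and Meis2 1.05 ± 0.22 higher at P4, and Slc38a1, an amino acid transporter, was lower (-0.38 ± 0.091). Of 6 astrocyte genes, 2 were higher at P4 in each nucleus, Aqp4 and Gja1, by 1.03 ± 0.19 and 1.71 ± 0.14 in the dLGN and by 3.81 ± 0.29 and 1.34 ± 0.13 in the VB. The part of astrocytes in the differences between ages was not tested. Whether age acted differently on these genes and on the members was not tested.

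The difference of the embBE effect between ages or nuclei was tested directly. None of the 9 members was called in any of the 4 contrasts, and the lowest limma adjusted p-value of a member was 0.551. Between P4 and P0, 0.418% of all genes were called in the dLGN and 0.346% in the VB. Between the dLGN and the VB, 0.478% were called at P4 and 2.54% at P0. The Gad1 effect was 1.65 ± 1.04 higher at P4 than at P0 in the dLGN and 2.72 ± 1.56 higher in the VB (SE), with 95% intervals that included 0. Single P0 arrays set these counts too, with 4 members called in the VB without control 35_2. The share of all genes called in that fit is not given.

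Genes that followed the members most closely were found by the correlation of their deviations from group means with the mean deviation of the 9 members over the 24 arrays. The 8 highest were Sst (r = 0.97), Islr2 (0.91), Rpp25 (0.90), Reln (0.86), Cartpt (0.80), Nova1 (0.79), Sema3c (0.78) and Me3 (0.77). Over the 22 arrays without 39_5, r was 0.68 for Sst, 0.63 for Rpp25, 0.58 for Sema3c, 0.54 for Reln and 0.28 to 0.40 for the others. Sst was at 8.22 in dLGN 39_5 and 5.93 to 6.62 in the other 11 dLGN arrays, and at 8.30 in VB 39_5 and 5.84 to 6.28 in the other 11 VB arrays. Cartpt, the precursor of CART peptide, was high in VB 39_5 only, at 7.48 against 4.45 to 5.08, and lay at 4.85 in dLGN 39_5, within the 4.55 to 5.11 of the others. The members are part of this score, and their r was 0.96 for Dlx1 and 0.89 for Gad1, and 0.59 and 0.73 without 39_5. Not all members followed it, with 0.18 for Slc32a1 and 0.082 for Sox14 over 24 arrays, and 0.73 for Dlx2 that became -0.13 without 39_5. Arrays share hybridization and scaling, so r is a description here as well.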

How the data were processed

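RNA from microdissected dLGN and VB went through 2 rounds of amplification and was hybridized to Affymetrix mouse arrays, 1 per sample. The authors normalized the arrays by RMA, whose version is not given here, and deposited log2 values of 45101 probe sets, which were used unchanged. No depth or detection call came with them, so the number of arrays limits the precision. Symbols came from the platform annotation, updated through Entrez numbers (34958 probe sets with 1 symbol, 932 with several, 9211 with none). The probe set of highest mean stood for its gene.

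Groups were taken from the sample labels. Comparisons within a nucleus were fitted in limma 3.58.1 (R 4.3.3) over its 12 arrays, and comparisons between nuclei over 24 arrays with the number pair as a random block. Differences averaged embBE and control group means where both entered. Adjusted p-values are Benjamini-Hochberg over 18194 genes. The fits were tested on simulated data.

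The members, the marker lists and the rule for named genes (all members, up to 4 called list genes per list and comparison, and 8 genes of closest pattern) were chosen with earlier results of these data known. Alternatives were another probe set rule, dim genes left out, other scaling, other fits, the methods' t-test, replicate blocks and each array left out. Leaving out both 39_5 arrays and the probe set of largest variance were added after the data were seen. Figures used matplotlib 3.10.9.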

Additional observations from a re-analysis of the deposited data

How the results depend on the processing

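The count of 1 called member in the VB at P0 became 0 with the mean of each gene's probe sets, with dim genes left out, with the probe set of largest variance, without both 39_5 arrays, with only the 2 groups compared and in the methods' t-test. With dim genes left out, Gad1, Slc32a1 and Sox14 were kept, so Lhx1, the member called there, was not among the genes tested. The median of the members there was -0.079 with dim genes left out, -0.72 with the probe set of largest variance and -0.065 without both 39_5 arrays. In the dLGN at P0 1 member was called after cyclic loess, and the median was 0.068 with dim genes left out and 0.21 without 39_5. In the VB at P4 1 member was called without both 39_5 arrays. Between P4 and P0 in the VB the count of 1 became 0 after cyclic loess, after median centring, and in control or embBE arrays alone. It was also 0 with dim genes left out, where the called Lhx5 was not among the genes tested. Between dLGN and VB at P0 1 member was called without both 39_5 arrays, against 0. At P4 the count of 3 became 1 after cyclic loess, after median centring and in embBE arrays alone, and 0 in control arrays alone.

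With each array left out in turn, called members ranged from 0 to 5 in VB embBE at P0 (5 without control 35_2, 3 without control 35_1) with a median of -0.61 to -0.065, and from 0 to 5 in dLGN embBE at P0 (5 without control 35_1, 2 without embBE 39_4) with a median of -1.02 to 0.21. They ranged from 0 to 1 between ages in each nucleus, from 0 to 2 between nuclei at P0 and from 1 to 2 between nuclei at P4. The difference of the embBE effect between ages called 0 to 4 members in the VB and 0 to 5 in the dLGN, and that between nuclei at P0 called 0 to 2. In fits over 24 arrays the correlation within number pairs was kept from the full fit. The share of all genes called in these fits is not given. A fit without 1 of the dLGN P0 control arrays left 1 control array in that group. The cause of these changes was not tested.

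With the first label number as a replicate block, 4 members were called in VB embBE at P0 and 3 in dLGN embBE at P0. In both nuclei 39_5 was the only control array with first number 39, so within that number the difference rested on 39_5. The share of all genes called with this block is not given, so a rise over all genes cannot be told apart. Not every pair had an r of deviations over 0.1, and shared first numbers at P0 were not checked. Deviations within groups of 2 to 4 arrays depend on each other, so these r values cannot decide whether the numbers pair arrays. At P4 the first numbers 24, 36 and 40 each stood on embBE and control arrays of both nuclei. In the study only some embryos of each litter were enucleated, and whether a first number marks a litter is not stated. The same number pair in both nuclei gave an r from -0.55 to 0.72, and the same first number at P4 gave -0.20 to 0.76. Between nuclei, the number pair as a fixed replicate block called 0 members at P0 and 4 at P4, and no replicate block called 0 and 3. Over all genes, counts also moved by over 1.5 times, such as 132 called in VB embBE at P0 and 28 in the methods' t-test, 1394 between nuclei at P0 and 489 without both 39_5 arrays, and 858 between ages in the dLGN and 265 without 39_5. No called value changed its sign. The number of arrays, and the weak signal of 6 of the 9 members, limit what could be seen.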
